A study of Tupaia belangeri chinensis with 12 samples.

Results

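Radial glia are the neural stem cells of the fetal cortex, and 9 genes for their structure and junctions are described here across 4 layers of the developing tree shrew cortex. The genes are VIM and NES, which encode intermediate filament proteins, CRB2, PROM1 and PARD3 of the apical membrane and polarity complexes, the gap junction gene GJA1, the tetraspanin gene CD9, the glial calcium-binding protein gene S100B, and LIX1. They were chosen by gene symbol, with their levels in these layers already known, so their levels and layer differences are a description and carry no test. Each symbol was found in the deposited tables, which hold 81414 usable gene IDs. All 9 were among the 14101 genes that passed a filter on low values (1 FPKM or more in at least 3 libraries). FPKM counts sequenced fragments relative to transcript length and library size, so levels are per length and can be set side by side between genes.

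The layers were cut by laser from frozen, Nissl-stained sections, and poly(A) RNA was sequenced. From the ventricle outward these were the ventricular zone (VZ), the inner (ISVZ) and outer (OSVZ) subventricular zones, and the cortical plate (CP), with 3 libraries each. All are labelled as Tupaia belangeri chinensis, the Chinese tree shrew, at embryonic day 37. No treatment or genotype is labelled. Table names give day 35 in place of 37; the labels were followed. Whether the libraries of 1 layer are from different animals is not labelled, so errors and p-values measure only the spread between libraries, which may be technical.

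Radial glia stand on the ventricular surface and span the cortical wall with a long fibre filled with vimentin and nestin. At their apical end, Crumbs and PAR proteins set up polarity above a belt of adherens junctions, gap junctions of connexin 43 couple neighbouring cells, and prominin-1 sits on membrane protrusions that face the ventricle. Cells that leave the ventricular surface, such as intermediate progenitors and outer radial glia, lose the apical contact, and outer radial glia keep a basal fibre. Newborn neurons move outward to the cortical plate.

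FPKM summed to between 244666 and 276629 per library, and 12157 to 13417 genes were at 1 or more. Read depth is not known from FPKM, but the tables give bounds around each value, which reached a median of 6.77% to 11.1% of the value to either side in the 12 libraries. The labelled layers were checked with marker lists, all of whose found genes were above 0 in some library. The summed level of 8 radial glia markers (PAX6, SOX2, HES1, HES5, SLC1A3, GLI3, NOTCH1 and TFAP2C) was 510 to 562 in VZ, 238 to 274 in ISVZ, 147 to 158 in OSVZ and 12.8 to 28.1 in CP. For 7 markers of postmitotic neurons the ranges were 83.2 to 225, 290 to 475, 713 to 820 and 1780 to 2170 in the same order. Of these, BCL11B fell from ISVZ outward, with means of 14.8, 25.5, 11.3 and 10.8, while the others rose in mean at each step. NEUROD6 and SYT4 were the highest in CP, with means of 665 and 486. The VZ libraries stood apart from each other in genes of 2 neighbouring tissues. Choroid plexus markers summed to 581 in VZ 1, 2770 in VZ 2 and 57.3 in VZ 3, with TTR, the transthyretin gene that defines choroid plexus epithelium, at 529, 2510 and 33.8. Markers of motile cilia, which ependymal and choroid plexus cells carry, summed to 27.1, 104 and 53.2. Outside VZ, choroid plexus markers summed to at most 57.5 and cilia markers to at most 10.1. The part of these tissues in the VZ levels below was not tested, and values without VZ 1 and VZ 2 are given beside the results.

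All 9 genes had their highest mean level in VZ, and 8 of them, all except LIX1, were lowest in the CP libraries. The genes differed in where along the wall the level dropped. CD9, GJA1 and LIX1 had most of their total log2 drop between VZ and ISVZ, while NES, PARD3 and PROM1 had most of it between OSVZ and CP. In these bulk samples, fewer cells of a type and less RNA per cell cannot be told apart.

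**Figure D1:**
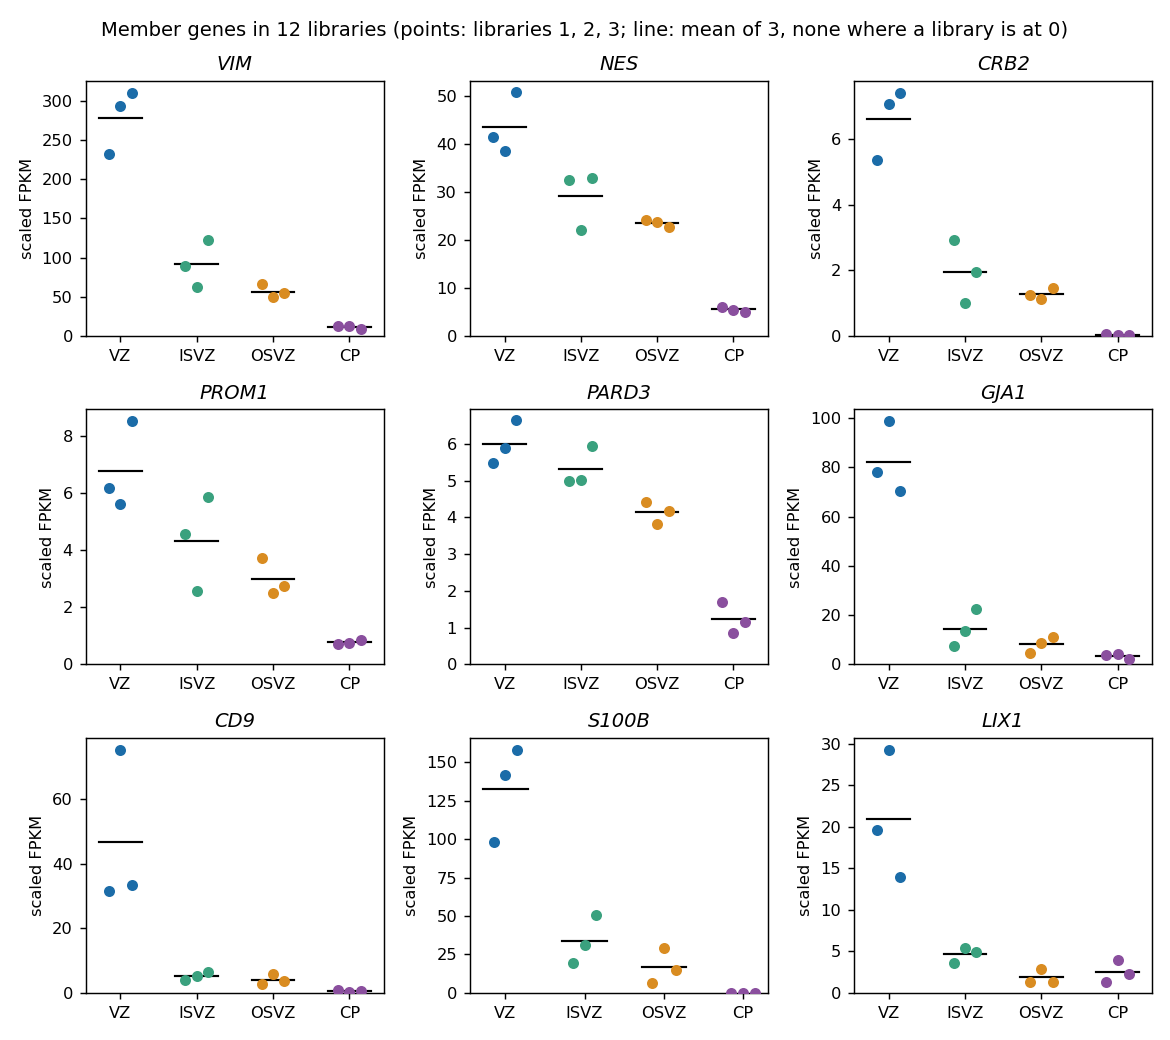
Scaled FPKM (linear axes from 0) of each gene in the 12 libraries, with 1 panel per gene and points for libraries 1 to 3 of each layer from left to right. The line is the mean of 3 libraries and is left out for S100B in CP, where 2 libraries are at 0; VIM spans 9.34 to 310 and PARD3 0.869 to 6.65.

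VIM encodes vimentin, the main filament protein of radial glia, and was the most abundant of the 9 genes in VZ, where it ranked 102 of all genes tested by mean level (TSDBGID.13672, chr2:21505161-21521088 in the coordinates of the deposited tables, whose build is not given in the sources used here). Its scaled FPKM was 232, 293 and 310 in VZ, 88.7, 62.3 and 123 in ISVZ, 65.9, 49.1 and 54.6 in OSVZ, and 12.7, 12.1 and 9.34 in CP. Every VZ library was above every ISVZ library, the ISVZ and OSVZ libraries overlapped, and every CP library was below every OSVZ library. The means were 278 ± 40.8, 91.4 ± 30.6, 56.5 ± 8.56 and 11.4 ± 1.82 (SD, n = 3), so that ISVZ held 32.8%, OSVZ 20.3% and CP 4.1% of the VZ mean. On the log2 scale of scaled FPKM plus 1, ISVZ minus VZ was -1.64 ± 0.22 (SE of the model over the 4 layers), OSVZ minus ISVZ -0.64 ± 0.22 and CP minus OSVZ -2.21 ± 0.22. Without VZ 1 and VZ 2, the first step of VIM was -1.81.

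NES encodes nestin, the filament protein that assembles with vimentin in neural stem cells (TSDBGID.24891, chr8:73693395-73704956). It was at 41.5, 38.6 and 50.9 in VZ, 32.6, 22.2 and 32.9 in ISVZ, 24.3, 23.8 and 22.7 in OSVZ, and 6.14, 5.41 and 5.06 in CP. Its VZ and ISVZ libraries lay close but did not overlap. Its drop before CP was shallower than that of VIM in the means: 43.7 ± 6.45, 29.2 ± 6.11, 23.6 ± 0.836 and 5.53 ± 0.551, with OSVZ at 54.0% and CP at 12.7% of VZ. The log2 differences were -0.57 ± 0.15, -0.28 ± 0.15 and -1.92 ± 0.15 over the 3 steps, and the last step made up 69.2% of the total. Without VZ 1 and VZ 2, the first step of NES was -0.8.

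CRB2 encodes a transmembrane protein of the Crumbs complex, which marks the apical membrane of epithelia (TSDBGID.13123, chr2:84376703-84407385). Its level was 5.36, 7.05 and 7.39 in VZ, 2.93, 1.01 and 1.94 in ISVZ, 1.24, 1.14 and 1.47 in OSVZ, and 0.0666, 0.037 and 0.0267 in CP. The CP libraries were near 0, with deposited bounds that reach from 0 to at most 0.199, and in the means ISVZ was at 29.7% and OSVZ at 19.5% of the VZ mean of 6.6 ± 1.09. The log2 differences were -1.4 ± 0.21, -0.32 ± 0.21 and -1.13 ± 0.21, and the first was -1.56 without VZ 1 and VZ 2. The scale of FPKM plus 1 understates changes of low genes, and the CP mean of 0.0434 ± 0.0207 was 0.658% of that in VZ.

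PROM1 encodes prominin-1 (CD133), a pentaspan protein of apical membrane protrusions (TSDBGID.26184, chr9:50341179-50482509). It was at 6.18, 5.62 and 8.55 in VZ, 4.59, 2.58 and 5.86 in ISVZ, 3.73, 2.51 and 2.75 in OSVZ, and 0.705, 0.746 and 0.873 in CP. ISVZ 3 lay above VZ 2, so neighbouring germinal layers overlapped, while CP stood below all of them. Each ISVZ library was nevertheless below the VZ library of the same number. The means were 6.78 ± 1.56, 4.34 ± 1.65, 3.0 ± 0.642 and 0.775 ± 0.0878, and the log2 differences were -0.57 ± 0.23, -0.38 ± 0.23 and -1.16 ± 0.23. With VZ 3 as the only VZ library, the first step was -0.89.

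PARD3 encodes the scaffold of the PAR complex, which gathers atypical protein kinase C at apical junctions (TSDBGID.12692, chr2:3975798-4693569). Its level was 5.48, 5.9 and 6.65 in VZ, 4.98, 5.01 and 5.94 in ISVZ, 4.43, 3.83 and 4.18 in OSVZ, and 1.69, 0.869 and 1.15 in CP. It was the flattest of the 9 across the germinal layers, with 88.4% of the VZ mean in ISVZ and 69.0% in OSVZ, and then 20.5% in CP. ISVZ overlapped VZ, OSVZ lay below ISVZ in every library, and CP below OSVZ in every library. Each ISVZ library was again below the VZ library of its number. The log2 differences were -0.15 ± 0.14, -0.29 ± 0.14 and -1.22 ± 0.14, and the first was -0.28 without VZ 1 and VZ 2.

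GJA1 encodes connexin 43, the main gap junction protein of radial glia and later of astrocytes (TSDBGID.20944, chr4:45181726-45192198). It was at 78.0, 98.7 and 70.3 in VZ, 7.56, 13.7 and 22.4 in ISVZ, 4.57, 8.85 and 11 in OSVZ, and 3.88, 4.3 and 2.04 in CP. The gap between VZ and ISVZ was wide in every library, and library 3 was the highest and library 1 the lowest in both ISVZ and OSVZ. Against a VZ mean of 82.3 ± 14.7, ISVZ held 17.7%, OSVZ 9.87% and CP 4.14%. The log2 differences were -2.52 ± 0.37, -0.72 ± 0.37 and -1.02 ± 0.37, and the first ranked 15 from the lowest of all genes tested. That step was -2.31 without VZ 1 and VZ 2.

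CD9 encodes a tetraspanin, a membrane organiser also found on ependymal and many other cells (TSDBGID.24086, chr7:34674240-34714728). Its level was 31.5, 75.1 and 33.5 in VZ, 4.02, 5.31 and 6.42 in ISVZ, 2.77, 5.91 and 3.6 in OSVZ, and 0.871, 0.388 and 0.451 in CP. VZ 2, the library with the most choroid plexus and cilia transcripts, was 2.38 times as high as the lowest VZ library, and all VZ libraries stood well above ISVZ. The log2 difference of ISVZ minus VZ was -2.83 ± 0.32, which ranked 7 from the lowest of all genes tested, -2.44 without VZ 2 and -2.48 without VZ 1 and VZ 2. The later steps were -0.33 ± 0.32 and -1.66 ± 0.32, and CP held 1.22% of the VZ mean of 46.7 ± 24.6.

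S100B encodes a calcium-binding protein of glia (TSDBGID.343, chr1:95711613-95723482). It was at 98, 142 and 158 in VZ, 19.7, 31.0 and 50.5 in ISVZ, and 6.33, 29.3 and 15.2 in OSVZ. In CP it was at 0.156 in library 2, and its entries in libraries 1 and 3 are 0 for any practical purpose (2.84e-17 and 3.71e-24). Such an entry in these tables can be a failed estimate, so no mean or fold is given for CP. Within OSVZ its libraries spread more than those of any other of the 9 genes on the log2 scale, from -1.06 to 0.98 around the layer mean. The log2 differences of the first 2 steps were -2.01 ± 0.45 and -1.08 ± 0.45, and the first was -2.29 without VZ 1 and VZ 2. The markers of astrocytes, which also express S100B, summed to 185 to 238 in VZ, 114 to 140 in ISVZ, 83.4 to 100 in OSVZ and 48.9 to 58.2 in CP, and their part in its level was not tested.

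LIX1, a gene named for its expression in the developing limb, was the exception in CP (TSDBGID.6153, chr11:77350489-77425097). Its level was 19.6, 29.3 and 14 in VZ, 3.58, 5.46 and 4.91 in ISVZ, 1.34, 2.92 and 1.33 in OSVZ, and 1.32, 3.91 and 2.23 in CP. OSVZ and CP overlapped, with means of 1.86 ± 0.916 and 2.49 ± 1.31. The log2 differences were -1.92 ± 0.32, -1.01 ± 0.32 and 0.26 ± 0.32, and the last was -0.02 without CP 2 and 0.52 without CP 1. Its first step was -1.42 without VZ 1 and VZ 2.

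**Figure D2:**
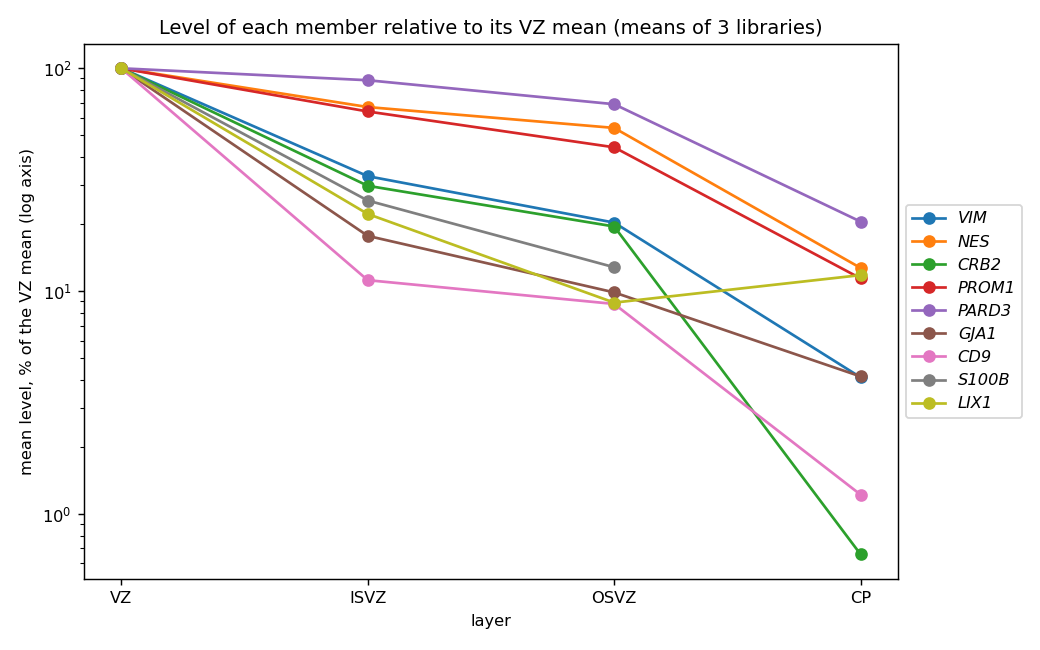
Mean level of each gene (3 libraries) as a percentage of its own VZ mean, on a log axis, from VZ to CP. PARD3, NES and PROM1 keep 88.4%, 67.0% and 64.0% in ISVZ, CD9 and GJA1 11.2% and 17.7%; S100B in CP is not drawn because 2 libraries are at 0.

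Between VZ and ISVZ, the libraries did not overlap for 7 of the 9 genes, all except PROM1 and PARD3, and all 7 were lower in ISVZ. Of all genes tested, 17.3% were lower in ISVZ with no overlap. The same 7 genes passed the adjusted threshold of 0.05 in the model fitted over all genes (limma, Benjamini-Hochberg), against 7.18% of all genes called lower and 1.54% called higher. Since the genes were chosen with these levels known, nothing is read from these counts. The median log2 difference was -1.64 over the 9 genes and -0.01 over all genes tested. Without VZ 2, VZ 3 or ISVZ 2 the count was 5 of the 9, without any other single library 6 or 7, and with VZ 3 alone for VZ only CD9 was called, at a median of -1.56. The call of NES was lost in 12 of 21 alternative settings and that of S100B in 6. A lone VZ library was assumed to vary like the other layers.

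Between ISVZ and OSVZ, all 9 log2 differences were below 0, with a median of -0.38 against -0.0 over all genes tested. Only PARD3 and LIX1 had no overlap of libraries, beside 11.5% of all genes. None of the 9 was called, and of all genes only 0.121% were called lower and 0.482% higher. Nothing is read from these counts either, for the same reason as in the first step. Neighbouring steps share the libraries of the layer between them, so a high ISVZ library makes the first step smaller and the second larger.

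Between OSVZ and CP, 8 of the 9 genes were lower in CP with no overlap, beside 25.6% of all genes. LIX1 was the exception. The adjusted threshold was passed by 7, all except GJA1 and LIX1, and by 8, with GJA1 among them, when the library number was a block in the model, beside 17.3% of all genes called lower and 13.7% called higher. The call of S100B uses the entries at 0 in CP 1 and CP 3, and no fit left out the 2 together. Its value in CP 2 was 0.156, and its lowest in OSVZ was 6.33. Since the genes were chosen with these levels known, nothing is read from these counts. The median was -1.22, against -0.04 over all genes tested. Across this step the neuron markers went from 713 to 820 up to 1780 to 2170, and the radial glia markers from 147 to 158 down to 12.8 to 28.1. Their part in the difference was not tested.

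**Figure D3:**
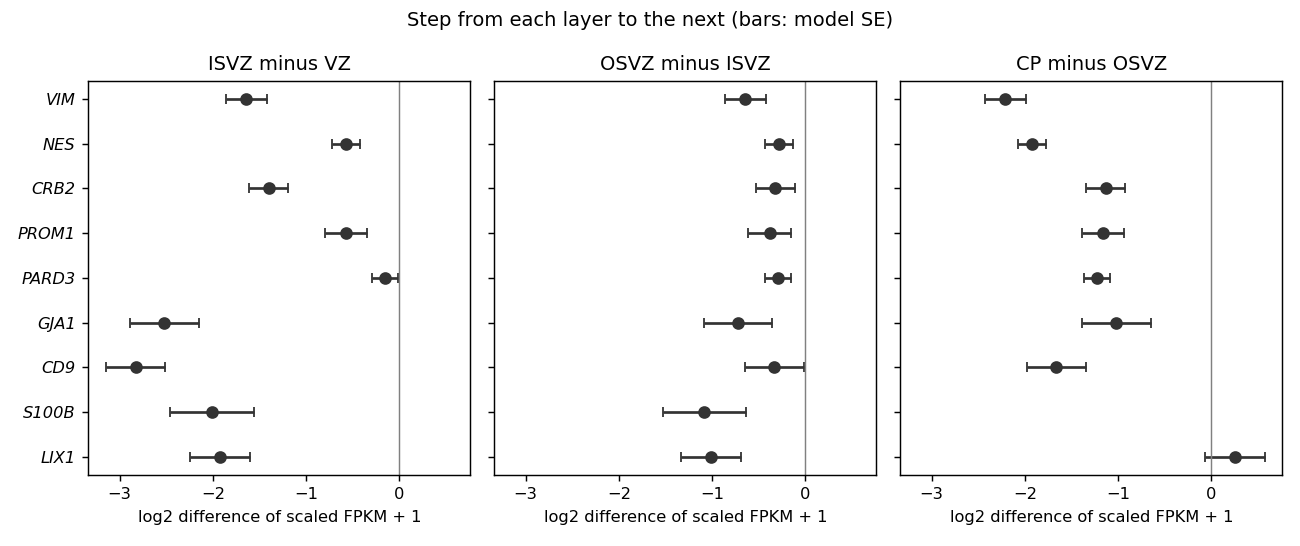
Log2 difference of scaled FPKM plus 1 for each gene in each step from one layer to the next, with bars for the SE of the 4-layer model. Values left of the line at 0 are lower in the outer layer: CD9 (-2.83) and GJA1 (-2.52) lie farthest left in the first step and LIX1 (0.26) lies right of 0 in the last, where S100B is not drawn.

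Copies and overlapping genes could share reads with these genes, and the use of strand in counting is not given in the sources used here. A second entry with the vimentin name, VIMli2 on contig1406 (261164 to 262450), was at 12.9, 15.1 and 11.6 in VZ, 3.8, 3.49 and 4.27 in ISVZ, 3.82, 2.11 and 2.01 in OSVZ, and 0.621, 0.636 and 0.442 in CP. It followed VIM from layer to layer at 4.22% to 4.97% of its mean, and reads may have been divided between the 2 entries. VIMli1 is listed at 0 in all libraries. The tables name 16 antisense genes after 6 of the 9 genes, of which 10 are listed at 0 throughout and none passed the filter. NES-AS-1, across 1 edge of NES, had means of 1.0, 0.556, 0.436 and 0.0635 in the 4 layers. CRB2 overlaps DENND1A, whose mean of 3.05 over all libraries exceeds the level of CRB2 outside VZ. S100B overlaps DIP2A, at a mean of 3.26, and LIX1 lies within CAST, at 0.95 with a highest library of 3.87. The low levels of CRB2 outside VZ and of LIX1 in OSVZ and CP are therefore uncertain.

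Within a layer, the 9 genes did not vary as 1 group. VZ 1 was below the layer mean for all 9 genes, with a mean deviation of -0.19 on the log2 scale. ISVZ 3 was above the layer mean for all 9, with a mean deviation of 0.33. VZ 2 held the highest VZ values of GJA1, CD9 and LIX1 and the lowest of NES and PROM1. The 9 genes form 36 pairs. Pearson's r over the 12 libraries was between 0.51 and 0.98 with a median of 0.92, which includes the differences between layers. After each layer's mean was taken out, r was between -0.68 and 0.84 with a median of 0.12, and 22 pairs were above 0. VIM, NES, CRB2 and PROM1 had pairwise r of 0.58 to 0.84 within layers, highest for NES with PROM1. GJA1, CD9, S100B and LIX1 had 0.4 to 0.72, highest for GJA1 with S100B. Between NES and LIX1 r was -0.53, and between PARD3 and LIX1 -0.68. These are descriptions over 12 libraries that share layers, with 8 free deviations.

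The same deviations were set beside the summed marker lists. CD9 had r = 0.75 with the cilia list, 0.71 with 6 meningeal markers, 0.47 with the choroid plexus list and -0.85 with the neuron list. LIX1 had 0.64 with the choroid plexus list, for which NES and PROM1 both had -0.73. S100B had 0.72 with the astrocyte list, whose sum is mostly GLUL, and NES had 0.78 with the list of mural cells of blood vessels. VIM had its highest r, 0.51, with the radial glia list, close to 0.5 with the mural list and 0.46 with the endothelial list. Over the 9 genes, r with the radial glia list ran from -0.11 for LIX1 to 0.51 for VIM. The r values named here were picked from all genes and lists, so they are high by selection. The meningeal markers summed to 4.52 in VZ 1, 15.5 in VZ 2 and 5.25 in VZ 3, to at most 3.88 in the subventricular layers, and to 14.9 to 21.5 in CP. The sum in CP was mostly LUM, with means of 0.445 in OSVZ and 14.6 in CP. Of the other tested markers, COL1A2 went from 0.58 to 0.699, COL3A1 from 1.25 to 1.26 and FOXC1 from 1.13 to 0.575. The CP sum is therefore not a measure of meningeal tissue as a whole. Mural markers summed to 25.4 to 33.8 in VZ and 7.18 to 12.7 in CP. The bounds of the deposited tables were narrower than the spread of CD9 and LIX1 in VZ: they reached 6.49% to 9.83% and 6.8% to 9.19% of the value to either side, while their coefficients of variation were 52.7% and 36.8%. For PARD3, with bounds of 8.34% to 15.9%, the variation between VZ libraries was 9.84%.

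**Figure D4:**
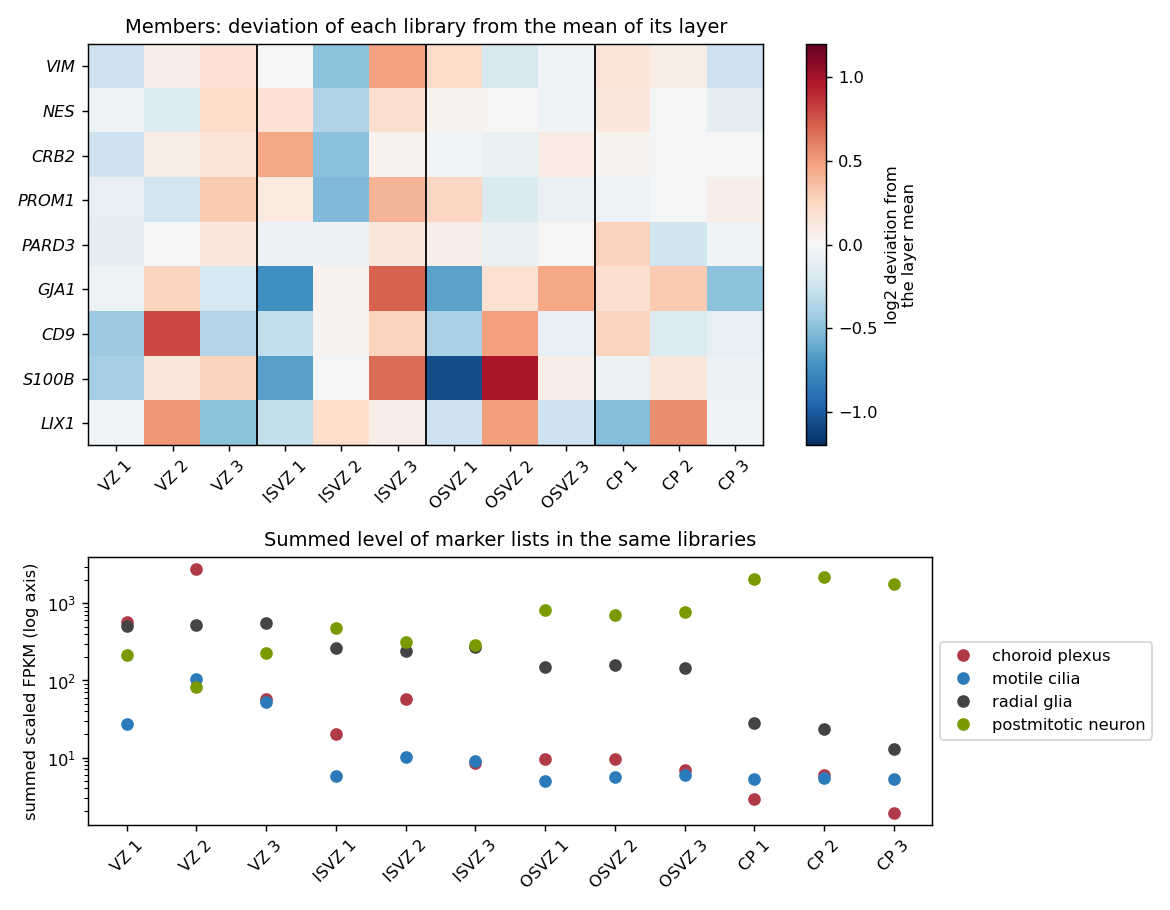
Upper panel, log2 deviation of each library from its layer mean for the 9 genes (colour scale, red above and blue below); lower panel, summed scaled FPKM of 4 marker lists in the same libraries on a log axis. CD9 in VZ 2 lies 0.79 above its layer mean, in the library where choroid plexus markers sum to 2770.

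Lists for other cell types that laser-cut layers could hold were summed in the same way. Intermediate progenitor markers summed to 202 to 324 in VZ, 179 to 367 in ISVZ and 185 to 296 in OSVZ, and dropped to 10.3 to 13.4 in CP. Oligodendrocyte precursor markers had their highest range in OSVZ, 52.3 to 75.3, against 24.1 to 33.4 in VZ. Endothelial markers were at 23.4 to 28.9 in VZ, 22.3 to 29.7 in ISVZ, 25.9 to 32.4 in OSVZ and 12.6 to 22.7 in CP. Microglial markers were at 17.2 to 25.7 in VZ and 1.03 to 2.18 in CP. Their part in the levels of the 9 genes was not tested.

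For each gene, the tested genes with the most similar profile were listed by Pearson's r over the 12 libraries, among 10559 genes with a symbol of their own. Nearest to VIM was YAP1 (r = 0.997), the transcriptional effector of the Hippo pathway, and then PSAT1 (0.996), an enzyme of serine synthesis. Nearest to NES were the receptor gene NOTCH1 (0.996) and CTDSP2 (0.996). CRB2 lay closest to PARD3B (0.993), a paralogue of PARD3, and to the semaphorin receptor gene PLXNB1 (0.993). For PROM1 they were RAD54L (0.992), a DNA repair gene, and MYH11 (0.991), and for PARD3 CHEK2 (0.992), a checkpoint kinase gene, and SPC25 (0.99) of the kinetochore. GJA1 and CD9 shared PLAT, the tissue plasminogen activator gene, at 0.988 and 0.991, beside PLAAT3 (0.989) for GJA1 and PDK4 (0.992), a kinase of the pyruvate dehydrogenase complex, for CD9. Nearest to S100B were ABHD4 (0.992) and the junctional adhesion gene JAM2 (0.991), and to LIX1 SEPTIN7 (0.98) and CCDC191 (0.976).

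With the layer means taken out, other genes came nearest, and only PROM1 with RAD54L (0.966) and CD9 with PDK4 (0.905) kept a name. VIM lay closest to KIF23 and TROAP (both 0.943), genes of late mitosis and the spindle. NES lay closest to SAPCD2 (0.973) and the G1 cyclin gene CCND1 (0.957), CRB2 to HMGXB3 (0.969) and FGFRL1 (0.947), and PROM1 first to HSD17B7 (0.985). PARD3 had TLK1 (0.942) and FIP1L1 (0.926), and GJA1 had PSMB1 (0.939) and SOX1 (0.92). CD9 had IPO4 (0.91) before PDK4, S100B had DENR (0.929) and FASTK (0.919), and LIX1 had LAPTM4A (0.956) and YIPF4 (0.938). The highest r of 10559 is high by selection, so these are names and not a measure of relation.

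The families and complexes of the 9 genes, with some genes linked to them, were then read from the same fit in 7 lists that leave the 9 genes out. These lists were chosen with earlier results of these data known. Their counts beside the shares of all genes are therefore a description, from which nothing is read. Of 146 listed names, 126 were found and 94 were tested. From VZ to ISVZ 32 fell and 2 rose, beside 7.18% and 1.54% of all genes tested. From OSVZ to CP 42 fell and 11 rose, beside 17.3% and 13.7%. From ISVZ to OSVZ none was called by limma, while 13 were higher and 16 lower at an unadjusted p under 0.05. The share of all genes at that unadjusted threshold is not given here, so nothing is read from the 13 and 16. Their median log2 differences were -0.35, -0.06 and -0.33 in the order of the steps, against -0.01, -0.0 and -0.04 over all genes. The count of 34 in the first step was 18 without ISVZ 2, 19 without VZ 2, 22 without VZ 3 and 5 with VZ 3 alone for VZ.

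**Figure D5:**
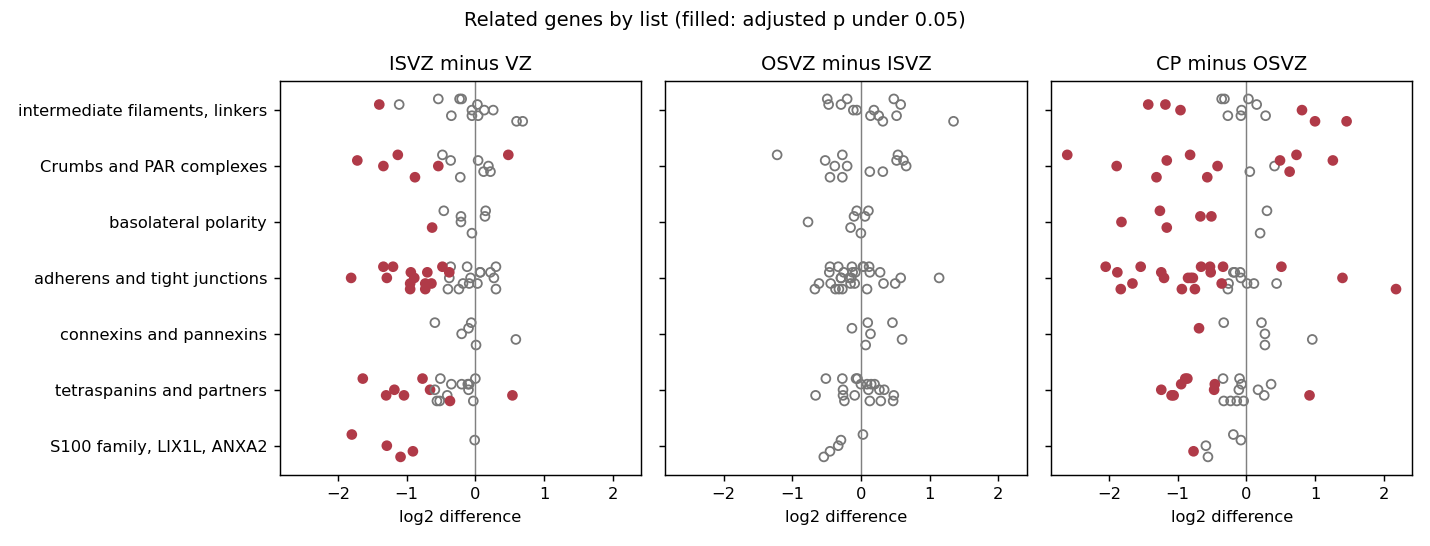
Log2 difference of scaled FPKM plus 1 of the 94 tested genes of 7 lists in each step, 1 point per gene, filled where the limma adjusted p is under 0.05. Filled points lie mostly left of 0 in the first step (32 of 34) and on both sides in the last (42 lower, 11 higher), with none in the middle step.

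Of the other filament, lamin and linker genes, 1 of 14 tested fell from VZ to ISVZ, a share near that of all genes, and 2 fell and 1 rose with the library number as a block. The gene called without the block was GFAP, the filament protein of astrocytes, at 11.4 ± 7.33 in VZ and 3.15 ± 0.801 in ISVZ (log2 -1.4, limma adjusted p = 0.0422). The call for GFAP was lost in 13 of 20 alternative settings, so it sits at the threshold. From OSVZ to CP, 3 genes of this list fell and 3 rose. Among them were LMNB1, a lamin of the nuclear envelope (75.7 ± 4.92 to 27.5 ± 3.0, log2 -1.43, limma adjusted p = 4.7e-05), and INA, the neuronal filament protein internexin (65.9 ± 35.3 to 168 ± 4.05, log2 1.46, limma adjusted p = 0.00464). LMNB2, another lamin, fell by 0.96 on the log2 scale. SYNC, a linker of filaments, rose by 0.81, and NEFM, a neurofilament subunit, by 1.0, although the NEFM call was lost in 4 settings.

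Of 13 tested genes around the Crumbs and PAR complexes, 5 fell and 1 rose from VZ to ISVZ. PARD3B, a paralogue of PARD3, fell from 4.6 ± 0.451 to 1.58 ± 0.369 (log2 -1.13, limma adjusted p = 0.00165), and the call held in every alternative run, with VZ 3 alone too (adjusted p = 0.0467). YAP1 went from 14.4 ± 3.3 to 5.12 ± 1.52 (log2 -1.34, limma adjusted p = 0.00432). WWC1, which encodes the Hippo pathway protein KIBRA, went down and up again along the wall, at 12.4 ± 3.91, 3.04 ± 1.11, 5.14 ± 1.11 and 13.9 ± 3.49. Its fall to ISVZ was -1.72 (limma adjusted p = 0.00342) and its rise to CP 1.26 (adjusted p = 0.00376), while the middle step was not called. With VZ 3 alone for VZ, the adjusted p was 0.0508 for YAP1 and 0.066 for WWC1. The rise of PRKCZ in ISVZ, by 0.48 (limma adjusted p = 0.0301), was lost in 9 of 21 settings.

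From OSVZ to CP, 7 genes of the same list fell and 4 rose, with some paralogues in opposite directions and others not. CRB1, a second Crumbs gene at 22.6 ± 2.62 in VZ and 17.3 ± 9.31 in ISVZ, fell from 6.22 ± 0.234 to 0.182 ± 0.0266 (log2 -2.61, limma adjusted p = 4.82e-05), and CRB2 was lower in CP too. PRKCI, an atypical protein kinase C, fell by 1.31 (adjusted p = 0.00453), whereas its paralogue PRKCZ rose from 9.98 ± 1.3 to 17.1 ± 0.921 (log2 0.73, adjusted p = 0.00103). The limma adjusted p was 0.000101 for YAP1, which fell by 1.89. LIN7C, a scaffold of the Crumbs complex also found at synapses, rose by 0.63. CDC42, a GTPase that acts in this complex and is used by every cell, is listed at 0 in all libraries.

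Of the basolateral polarity and spindle orientation genes, 1 of 7 tested fell from VZ to ISVZ. It was LLGL1, a basolateral determinant (19.5 ± 3.42 to 12.2 ± 2.07, log2 -0.63, limma adjusted p = 0.0189), whose call was lost in 6 of 21 settings. In CP 5 of 7 fell. GPSM2, which links the cortex of a dividing cell to its spindle, was at 16.3 ± 0.714 in VZ and 14.4 ± 4.95 in ISVZ, and fell from 7.79 ± 1.04 in OSVZ to 1.48 ± 0.214 in CP (log2 -1.82, limma adjusted p = 4.7e-05). Its partner NUMA1 fell by 1.26, and LLGL1 by 1.16 (adjusted p = 0.000159).

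Adherens and tight junction genes formed the longest list, with 29 tested, and 14 of them fell from VZ to ISVZ while none rose. AJUBA, a LIM protein of adherens junctions, fell from 8.59 ± 1.91 to 1.76 ± 0.718 (log2 -1.81, limma adjusted p = 0.00138). PLEKHA7, which binds the cadherin complex, fell by 1.29 (adjusted p = 0.00269), and SLC9A3R1, a scaffold that ties membrane proteins to ezrin, by 1.34 (adjusted p = 0.00315). With VZ 3 alone for VZ, 2 of the 14 calls were made, and the adjusted p was 0.0443 for both AJUBA and PLEKHA7 and 0.0559 for SLC9A3R1. Among the cadherin and catenin genes of the junction, 2 that were chosen for mention after their values were seen were not called in any step, while the alpha-catenin gene CTNNA1 fell by 0.95 (limma adjusted p = 0.00835; 0.058 with VZ 3 alone). N-cadherin (CDH2) was at 52.5 ± 5.1, 47.7 ± 15, 33.9 ± 4.4 and 46.6 ± 8.43, and beta-catenin (CTNNB1) at 32.6 ± 3.94, 34.3 ± 4.49, 31.4 ± 3.74 and 28.4 ± 6.87.

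In CP, 17 of the 29 junction genes fell and 3 rose. EZR, which encodes ezrin, a linker of membrane and actin, fell from 83.2 ± 21.2 to 19.7 ± 6.54 (log2 -2.05, limma adjusted p = 0.000613). MYO10, a myosin of filopodia, fell by 1.88 (adjusted p = 2.79e-05). CTNNA1, alpha-E-catenin, was at 70.7 ± 12.8, 36.1 ± 7.3, 22.1 ± 1.9 and 5.56 ± 1.24, and fell in the last step by 1.83 (limma adjusted p = 3.58e-05). Its neuronal paralogue CTNNA2 was at 30.5 ± 4.09, 38.0 ± 7.17, 38.7 ± 3.9 and 55.5 ± 2.53, and rose by 0.51 (adjusted p = 0.018), a call lost in 5 of 21 settings. NECTIN3, a nectin adhesion protein, rose from 3.21 ± 0.145 to 18.7 ± 6.42 (log2 2.18, limma adjusted p = 1.07e-05). The protocadherin FAT4 rose from 8.11 ± 2.68 to 23.8 ± 10.5 (log2 1.4, limma adjusted p = 0.0126), which was lost in 2 settings.

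GJA1 stood apart from the other connexin and pannexin genes in level. Of 15 found, 6 were tested. Their layer means did not exceed 13, that of PANX1 in CP, while GJA1 was at 82.3 in VZ. None was called between VZ and ISVZ or between ISVZ and OSVZ by limma, where 1 gene in each step was past an unadjusted p of 0.05. In CP GJC1, connexin 45, fell by 0.69 (limma adjusted p = 0.0468), a call lost in 12 of 20 settings. GJB2, connexin 26, which is known from rodent radial glia, was below the filter, with a highest library of 0.11.

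Tetraspanins and their partners had 7 of 20 tested genes lower in ISVZ than in VZ and 1 higher. TSPAN33 fell from 10.4 ± 2.77 to 2.63 ± 0.75 (log2 -1.64, limma adjusted p = 0.00306). CD82 fell by 1.3 (adjusted p = 0.00747), and TSPAN12, a partner of Frizzled receptors, by 1.18 (adjusted p = 0.00418). With VZ 3 alone for VZ, no gene of this list was called. TSPAN13 had the reverse order, at 51.0 ± 3.23, 75.1 ± 12.8, 104 ± 11.4 and 198 ± 16.9. It rose by 0.54 in ISVZ (limma adjusted p = 0.0298, lost in 5 of 21 settings) and by 0.92 in CP (adjusted p = 0.000483). In CP 8 of the 20 fell, among them TSPAN12 by 1.24 and TSPAN6 by 1.09, with limma adjusted p of 0.000661 and 0.000586. CD63, another tetraspanin, is listed at 0 in all libraries.

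Of the S100 relatives of S100B, with ANXA2 (annexin A2, a partner of S100A10) and LIX1L, the paralogue of LIX1, 5 genes were tested and 4 fell from VZ to ISVZ. Only 1 of the 5 was called without ISVZ 1, without ISVZ 2, without VZ 3, or with VZ 3 alone for VZ. S100A13 fell from 65.5 ± 9.44 to 34.4 ± 3.36 (log2 -0.91, limma adjusted p = 0.00598; 0.0559 with VZ 3 alone). The falls of ANXA2 (log2 -1.8, limma adjusted p = 0.0177) and of S100A11 (log2 -1.29, adjusted p = 0.0473) were lost in 4 and 16 of 20 settings. LIX1L was at 14 ± 1.01, 14 ± 2.04, 11.2 ± 0.425 and 10.5 ± 0.883, and was not called in any step. In CP only S100A13 of these 5 fell, by 0.77 (limma adjusted p = 0.00394).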

How the data were processed

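The authors deposited 1 table of gene-level FPKM per library, with lower and upper bounds, per the file headers. The submitters' processing notes list HISAT2 and Cufflinks. Their versions, the build and the use of strand were not given in the sources used here. No read counts were used, so depth is unknown. Each table held 81792 entries for 81418 gene IDs. Entries sharing an ID (360 IDs) were summed, and 4 IDs with a failed status were left out. Each library was scaled by 1 factor (0.947 to 1.063, the median ratio over 10200 genes whose FPKM reached 1 in every library). Genes at 1 or more in 3 libraries were fitted on log2 of scaled FPKM plus 1 with limma 3.58.1 in R 4.3.3 (4 layers, no covariate, intensity trend, 8 residual degrees of freedom, Benjamini-Hochberg over 14101 genes, two-sided, threshold 0.05). The script was tested on simulated data.

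The 9 genes and all lists were chosen with earlier results of these data known. Named relatives are the up to 3 highest and 3 lowest called genes of each list and step, not all printed; nearest profiles are the 2 highest r. The deviations of same-numbered libraries from their layer means were compared over genes, with a cut at r = 0.1. Every pair of VZ with ISVZ (r = 0.172 to 0.217) and of OSVZ with CP (0.104 to 0.342) passed it. The pairs of ISVZ with OSVZ (0.083 to 0.348) were all positive but did not all pass. The median r for libraries of different number was -0.129. Deviations from a layer mean sum to 0 over its 3 libraries, so a positive r for the same number brings a negative r for other numbers. The -0.129 is therefore not a separate sign of pairing. The cut was a choice, and the fit reported has no block in any step. The pairs of VZ with CP (0.194 to 0.337) and of ISVZ with CP (0.126 to 0.261) passed the cut as well. The numbers may therefore pair libraries across all layers, ISVZ and OSVZ included, which the labels do not say. Errors and adjusted p-values printed here leave such a pairing out. Results with the number as a block are given where a call of the 9 genes changes, and as counts for the lists. Alternatives covered the scaling, the pseudocount, the filter, the trend, the replicate number, each library left out, and VZ 1 with VZ 2 left out. No sequence was used here.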

Additional observations from a re-analysis of the deposited data

How the results depend on the processing

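No log2 difference changed direction in a called result. Of 567 values of the 9 genes under the alternatives 557 moved by less than the spread between libraries, and of 1084 values of named relatives 982 kept their call and 102 lost it. Genes called in ISVZ minus VZ, 1229 in the fit reported, were 715 with a filter of 5, 787 with no filter, 71 without VZ 1 and VZ 2, and 389 to 1384 with 1 library left out. Genes called in OSVZ minus ISVZ, 85 in that fit, were 54 with FPKM as deposited, 38 with equal totals, 156 with quantile normalisation, 299 with a filter of 5, 8 with no filter, 19 with a pseudocount of 0.1, 21 without VZ 1 and VZ 2, and 2 to 552 with 1 library left out. For CP minus OSVZ, 4371 became 3095 to 4394 with 1 library left out. Called relatives in ISVZ minus VZ, 34, were 5 without VZ 1 and VZ 2, 21 with no filter and 18 to 34 with 1 library left out; in OSVZ minus ISVZ, 0, they were 5 with a filter of 5, 1 with quantile normalisation and 0 to 5, and in CP minus OSVZ, 53, they were 43 to 54. The median of the 9 genes ranged from -1.88 to -1.39, -0.64 to -0.3 and -1.36 to -1.17 with 1 library left out, and in CP minus OSVZ it was -2.08 with a pseudocount of 0.1, which weighs low genes more. Quantile normalisation moved the called split in ISVZ minus VZ from 217 higher and 1012 lower to 370 and 795. The cause of the other moves was not tested.

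The replicate block, a term for the library number, gave 1588, 206 and 5010 called genes in the 3 steps and 37, 2 and 54 called relatives. No named relative lost its call with the block, but calls were gained. In OSVZ minus ISVZ, 1 gene of the filament list and 1 of the Crumbs and PAR list were then called higher, against 0 without the block. Which relatives gained a call is not given here. Of the 9 genes, LIX1 was called lower in OSVZ minus ISVZ with the block, and GJA1 in CP minus OSVZ. Deviations of same-numbered libraries correlated at 0.063 to 0.425 over genes in 18 pairs, 16 of them over 0.1, and 12 of 12 libraries agreed best with their own number. The labels do not say what the number marks, and the pairs of ISVZ with OSVZ did not all pass 0.1, so the block result of that step rests on a shared number only. Low levels are limited by their bounds: those of S100B in CP reach from 0 to 0.357 FPKM in library 2 and to 0.0578 and 0.0604 in libraries 1 and 3.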
